A study of Mus musculus with 12 samples.

Results

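The 10 genes described here encode the enzymes that build, lengthen and desaturate fatty acids: Fasn, Acaca, Acacb, Scd1, Scd2, Elovl1, Elovl5, Elovl6, Fads1 and Fads2. They were taken by symbol from a table of 51912 genes. All 10 were in the table, and all 10 had at least 10 normalised reads in at least 3 of the 12 libraries, the filter that left 13865 genes for testing. The samples were heart ventricles of untreated mice, either wild type (WT) or LCHADD, a mouse model of deficiency of the long-chain 3-hydroxyacyl-CoA dehydrogenase, an enzyme of mitochondrial fatty acid oxidation. There were 3 WT females, 3 LCHADD females, 3 WT males and 3 LCHADD males. Age, strain and the change made in the gene are not stated in the labels, nor whether each library came from a separate animal, so p-values measure the spread between these libraries. The question the design puts to these genes is whether LCHADD ventricle differed from WT ventricle in each sex.

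Cytosolic fatty acid synthesis starts when acetyl-CoA carboxylase makes malonyl-CoA, from which fatty acid synthase assembles palmitate using NADPH. Elongases of the Elovl family then add carbon units in the endoplasmic reticulum, stearoyl-CoA desaturases (Scd) make monounsaturated chains, and the Fads desaturases act on polyunsaturated ones. The heart makes little fatty acid for storage: its malonyl-CoA is best known as the inhibitor of carnitine palmitoyltransferase, the entry step of long chains into mitochondria.

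Libraries held 15613668 to 23174936 reads. The share from mitochondrial genes ran from 27.5 to 32.7% in WT and from 31.0 to 37.9% in LCHADD libraries. LCHADD female 2 stood furthest from its group, with a root mean square log2 distance of 0.54 from the mean of the other 2 libraries, against 0.33 to 0.47 for the other 11. Ventricular cardiomyocyte markers were detected throughout, with all 8 tested, while the atrial markers Myl7 and Sln averaged 1.55 and 0.41 normalised reads and did not pass the filter. The other 2 atrial markers, Nppa (mean 195) and Myl4 (mean 25.2), were tested and did not differ detectably by genotype in either sex (limma adjusted p of 0.571 or more in each). Averaged over the sexes, 6 of 8 cardiomyocyte, 7 of 7 fibroblast, 5 of 7 endothelial, 5 of 6 mural, 3 of 4 tested Schwann cell, 5 of 5 erythroid and 0 of 7 macrophage markers fell, and none of these rose, where 20.6% of all tested genes fell and 20.3% rose. In females alone 2 of 7 macrophage markers rose, Adgre1 by 0.61 and Cd68 by 0.66 (limma adjusted p of 0.0329 and 0.0232), against 16.7% of all genes. Of the tested Schwann cell markers, Sox10 and Kcna1 reached 10 normalised reads in WT libraries only, so the filter favoured a fall for them. In whole ventricle, fewer cells of a type and less RNA per cell cannot be told apart, and the part that cell makeup plays in the results on the 10 genes was not tested.

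Expression of 5 of the 10 genes differed between genotypes in the mean of the female and male differences, called the sex average here: Fasn, Acacb, Scd2 and Fads2 fell and Elovl1 rose. The test was limma on log2(normalised reads + 1), with p-values adjusted over all 13865 genes. Of all tested genes, 40.8% passed in that comparison, 20.3% higher and 20.6% lower, so the members' share is near the background. In females 4 of 10 passed (Fasn, Acacb and Scd2 lower, Elovl1 higher), against 33.8% of all genes, of which 16.7% were higher and 17.2% lower (2314 and 2378 genes, or 2884 and 1953 when libraries were scaled to their nuclear reads). In males 4 of 10 passed (Fasn, Scd2 and Fads2 lower, Elovl1 higher), against 15.5% of all genes, 7.71% higher and 7.77% lower. The median log2 difference over the 10 genes was -0.33 for females, -0.14 for males and -0.21 for the sex average. Over all tested genes the medians were -0.00347, 1.97e-05 and -0.00193. The count in males ranged from 1 to 4 when single libraries were left out: it was 1 without WT male 1 or LCHADD male 3 and 2 without WT male 2, WT male 3, LCHADD male 1 or LCHADD male 2.

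**Figure D1:**
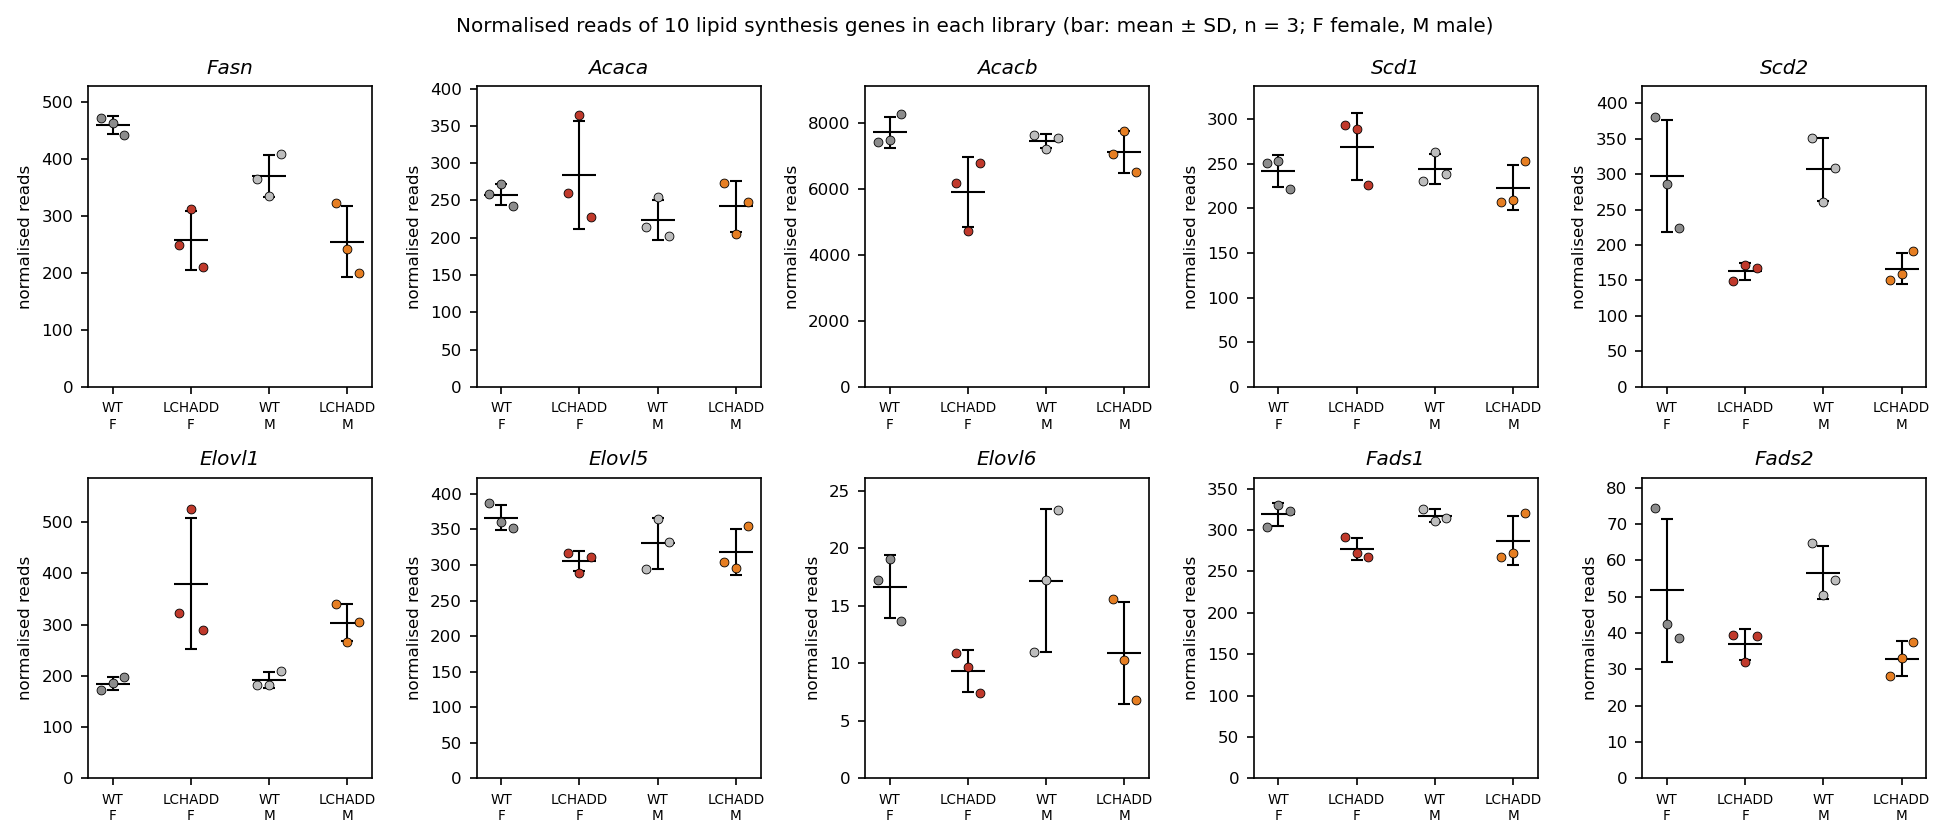
Normalised reads of each of the 10 genes in each of the 12 libraries, one panel per gene, with points for libraries and lines for group means of 3. Scd2 and Fasn sit lower, and Elovl1 higher, in every LCHADD library than in any WT library, while the Acaca and Scd1 groups overlap.

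Fasn, the fatty acid synthase itself, fell in both sexes. WT females held 472, 463 and 442 normalised reads and LCHADD females 248, 312 and 210.2. WT males held 364.5, 335 and 409 and LCHADD males 322, 242 and 199. All 6 LCHADD libraries lay below all 6 WT libraries, and LCHADD male 1, at 322, came closest to the WT range. The log2 difference was -0.85 (SE 0.16, limma adjusted p = 0.00101) for females, -0.56 (SE 0.16, limma adjusted p = 0.0301) for males and -0.71 (SE 0.12, limma adjusted p = 0.000196) for the sex average. The male difference did not pass without WT male 1, WT male 3, LCHADD male 2 or LCHADD male 3, with limma adjusted p of 0.08, 0.12, 0.081 and 0.13.

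Adipocytes express much Fasn, and the summed adipocyte markers were lower in LCHADD females than in WT females. The summed level of 8 adipocyte markers was 34.4, 34.7 and 54.8 normalised reads for WT females against 3.28, 9.71 and 19.0 for LCHADD females. For WT males it was 3.98, 0 and 4.32 against 1.04, 0 and 2.28 for LCHADD males. Of these markers, Cfd alone passed the filter, and it did so only through the WT females, at 11.7 to 32.5 normalised reads. No library of another group reached 10, so a test of Cfd could not show a fall apart from the filter. Adipoq, the defining marker, was at 0 in all 3 WT males, and its reads over all 12 libraries came to 20. Of 5 brown adipocyte markers, Ucp1, Elovl3 and Otop1 averaged 0.36, 0.71 and 0.09 normalised reads over the 12 libraries and were not tested. The 2 tested, Cidea (mean 399) and Cox8b (mean 5895), moved in opposite directions. Whether their reads came from fat cells was not tested. Cidea was higher in LCHADD, by 0.60 in females and 0.39 in males (limma adjusted p of 0.00133 and 0.036). Cox8b was lower, at -0.53 and -0.38 (limma adjusted p of 0.000395 and 0.00974). Every male library had a sum of the 8 adipocyte markers under 5. The part of fat cells in the Fasn difference was not tested in either sex.

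Acacb, the carboxylase isoform at the outer mitochondrial membrane whose malonyl-CoA restrains carnitine palmitoyltransferase, fell in females. Its WT female values were 7424, 7489 and 8284 normalised reads and its LCHADD female values 6200, 4730 and 6792, with no overlap. In males the WT values of 7635, 7229 and 7549 overlapped with the LCHADD values of 7084, 7786 and 6516. The log2 difference was -0.40 (SE 0.11, limma adjusted p = 0.0102) for females and -0.07 for males (95% interval -0.30 to 0.16, limma adjusted p = 0.71). Averaged over the sexes it was -0.24 (SE 0.08, limma adjusted p = 0.023), and this no longer passed without WT female 3, WT male 1 or LCHADD male 3, with limma adjusted p of 0.059, 0.051 and 0.062. LCHADD female 2 had the lowest value, and without it the female difference was -0.25 with limma adjusted p = 0.022. Without both LCHADD female 2 and WT female 3 it was -0.20 and did not pass (limma adjusted p = 0.081). Acaca, the cytosolic isoform that supplies malonyl-CoA to Fasn, did not pass in either sex. Its WT libraries ranged from 202 to 271 normalised reads and its LCHADD libraries from 205 to 365, the highest being LCHADD female 2. Its 95% interval for the log2 difference averaged over the sexes was -0.13 to 0.36, and does not reach the Fasn difference of -0.71.

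Scd2, a stearoyl-CoA desaturase that makes oleate and palmitoleate, fell in both sexes by similar amounts. WT females held 381, 286 and 224 normalised reads and LCHADD females 149, 172 and 168. WT males held 351, 261 and 309 and LCHADD males 150.1, 159 and 191. No LCHADD library reached the lowest WT library, WT female 3. The log2 difference was -0.83 (SE 0.17, limma adjusted p = 0.00174) for females, -0.87 (SE 0.17, limma adjusted p = 0.00325) for males and -0.85 (SE 0.12, limma adjusted p = 5.83e-05) for the sex average. These calls held under every alternative run.

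Scd1, the close relative of Scd2 that predominates in liver and fat, did not pass. WT females held 250.4, 253 and 222 normalised reads against 293, 288 and 226 for LCHADD females. WT males held 231, 263 and 239 against 207, 209.5 and 253 for LCHADD males. Its groups overlapped in both sexes, with a 95% interval for the log2 difference of -0.18 to 0.20 in the sex average. With reads taken per kilobase of exon, Scd1 made up 47.7 ± 4.74% of the Scd1 and Scd2 signal in WT (SD, n = 6) and 62.3 ± 3.82% in LCHADD libraries (SD, n = 6). WT libraries lay between 42.3 and 52.9% and LCHADD libraries between 59.5 and 68.8%. The groups did not overlap in this share, and the numerator gene did not pass the test while the other fell.

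Mice carry Scd3 and Scd4 as well, near copies in the same gene cluster, and both were higher on average in LCHADD libraries. How reads shared between the 4 copies were counted is not given in the sources used here, so the split between them is uncertain. For Scd3, WT females held 10.2, 3.47 and 6.85 normalised reads against 50.3, 202 and 37.0 for LCHADD females. WT males held 6.97, 3.70 and 6.92 Scd3 reads against 28.1, 16.03 and 20.5 for LCHADD males. Scd4, described in heart, was at 158, 102 and 342 normalised reads for WT females against 981, 1488 and 515.5 for LCHADD females. In males Scd4 was at 154, 139 and 325 in WT and 599, 314 and 657 in LCHADD libraries. LCHADD female 2 was the highest library for both genes, and the Scd4 ranges overlapped in males. Scd3 entered the test through the LCHADD libraries, since WT female 1, at 10.2, was the only WT library to reach 10. Its calls therefore depend on the group where it is high and are given as description only. The log2 difference in females was 3.33 for Scd3 (SE 0.54, limma adjusted p = 0.000254), or 2.59 without LCHADD female 2, and 2.35 for Scd4 (SE 0.44, limma adjusted p = 0.000872). In males it was 1.72 for Scd3 (limma adjusted p = 0.0415) and 1.38 for Scd4 (limma adjusted p = 0.0481). The male calls were not stable: Scd3 passed in 11 of 22 alternatives and Scd4 in 11 of 23.

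Per kilobase of exon, the 4 Scd genes together gave 159 ± 24.2 normalised reads for WT females against 376 ± 159.5 for LCHADD females, and 162.5 ± 27.9 for WT males against 221 ± 55.2 for LCHADD males (SD, n = 3). Scd2 went from 34.9 ± 7.68% of this sum in WT to 11.7 ± 4.50% in LCHADD libraries (SD, n = 6), and Scd4 from 32.4 ± 12.2% to 65.1 ± 7.70%. Scd2 thus had the largest mean share of the 4 in WT, though its range overlapped with those of Scd1 and Scd4, and in LCHADD libraries the largest share belonged to Scd4.

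**Figure D2:**
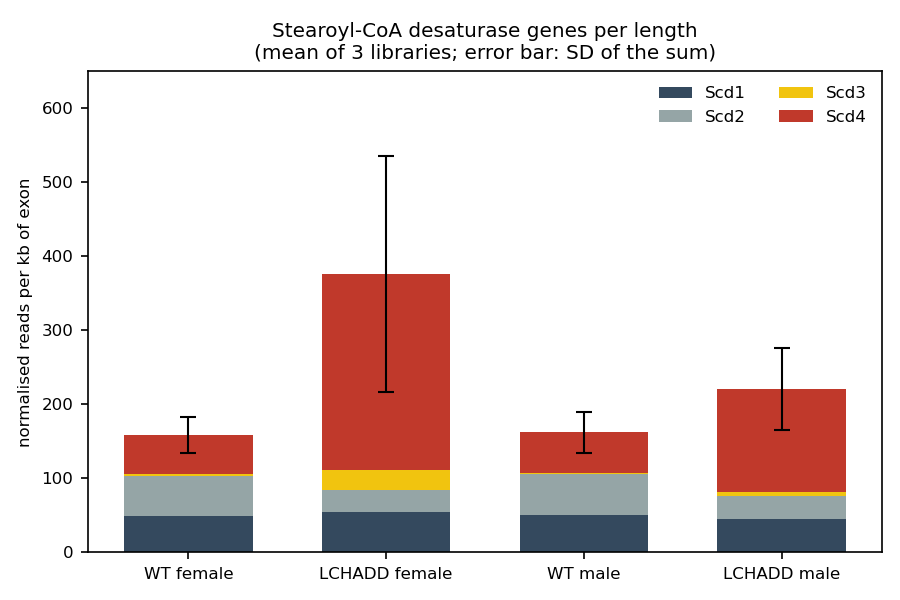
Stacked bars of mean normalised reads per kilobase of exon for Scd1, Scd2, Scd3 and Scd4 by group (n = 3). The error bar is the SD of the sum of the 4 genes. Scd2 is lower and Scd4 higher on average in LCHADD libraries, while the Scd1 group means lie between 45.6 and 55.0.

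Fads2, the desaturase of the entry step of polyunsaturated fatty acid synthesis, fell in males and in the sex average. WT males held 64.7, 50.6 and 54.5 normalised reads and LCHADD males 28.1, 33.2 and 37.6, with no overlap. In females the WT values of 74.3, 42.5 and 38.5 overlapped with the LCHADD values of 39.4, 32.0 and 39.1, WT female 1 standing well above the other 2. The log2 difference was -0.76 for males (SE 0.25, limma adjusted p = 0.0499), -0.43 for females (95% interval -0.96 to 0.10, limma adjusted p = 0.206) and -0.59 for the sex average (SE 0.18, limma adjusted p = 0.0136). The male call sat at the threshold and was kept in 8 of 23 alternatives, with adjusted p from 0.023 to 0.17, while the call in the sex average was kept in 22 of 22.

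Fads1, which acts at a later step of the same pathway, was steadier. WT females held 304, 330.3 and 323 normalised reads against 292, 272 and 267 for LCHADD females, and WT males 326, 311 and 315 against 268, 272.5 and 321 for LCHADD males. The female groups did not overlap, and LCHADD male 3 lay within the WT range. The log2 difference was -0.20 for females (limma adjusted p = 0.132), -0.15 for males (limma adjusted p = 0.346) and -0.17 for the sex average (95% interval -0.33 to -0.03, limma adjusted p = 0.0586), none of which passed. Without LCHADD male 3 the difference in the sex average passed, with limma adjusted p = 0.023. Per length, Fads1 made up 80.2 ± 4.27% of the Fads1 and Fads2 signal in WT and 84.7 ± 1.52% in LCHADD libraries (SD, n = 6). The libraries that were high or low in WT were shared by Scd2 and Fads2: both genes were highest in WT female 1 and WT male 1 of their sexes, and of the 6 WT libraries lowest in WT female 3.

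Elovl1, the elongase of saturated and monounsaturated very-long chains used in sphingolipids, was the member that rose. WT females held 172, 185.5 and 198 normalised reads and LCHADD females 324, 526 and 290.5. WT males held 182, 182.5 and 209 and LCHADD males 339.7, 267 and 305. Every LCHADD library lay above every WT library, and LCHADD female 2 was the highest. The log2 difference was 0.99 for females (SE 0.18, limma adjusted p = 0.000587), 0.66 for males (SE 0.18, limma adjusted p = 0.0196) and 0.82 for the sex average (SE 0.13, limma adjusted p = 9.95e-05). Without LCHADD female 2 the female difference was 0.73, with limma adjusted p = 0.00028. The male call was lost without WT male 1, WT male 2, LCHADD male 1 or LCHADD male 3, with limma adjusted p of 0.072, 0.067, 0.092 and 0.059. In the annotation, 53 bases (1.94%) of Elovl1 exon overlap with Cdc20 on the other strand. Whether counting used strand is not given in the sources used here, and Cdc20 averaged 12.5 normalised reads, far below Elovl1.

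Elovl5 and Elovl6, the elongases of polyunsaturated chains and of palmitate, did not pass in either sex. For Elovl5, WT females held 387, 361 and 353 normalised reads against 317, 289 and 311 for LCHADD females, with no overlap and a log2 difference of -0.26 (95% interval -0.49 to -0.03, limma adjusted p = 0.0741). In males its ranges of 294 to 365 in WT and 295 to 355 in LCHADD libraries lay almost on top of each other. Elovl6 was the scarcest member, with 17.2, 19.1 and 13.7 normalised reads for WT females against 10.9, 9.71 and 7.39 for LCHADD females. WT males held 11.0, 17.3 and 23.4 against 15.6, 10.3 and 6.83 for LCHADD males. Its female groups did not overlap and its male groups did. The Elovl6 log2 difference was -0.70 for the sex average (95% interval -1.27 to -0.12), and its limma adjusted p of 0.0504 missed the threshold. It passed in 5 of 21 alternatives, among them edgeR with adjusted p = 0.046. Per length, Elovl1 made up 40.6 ± 3.18% of the signal of the 3 elongases in WT (SD, n = 6), between 35.97 and 44.0%, and 57.5 ± 6.41% in LCHADD libraries, between 52.3 and 69.8%.

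**Figure D3:**
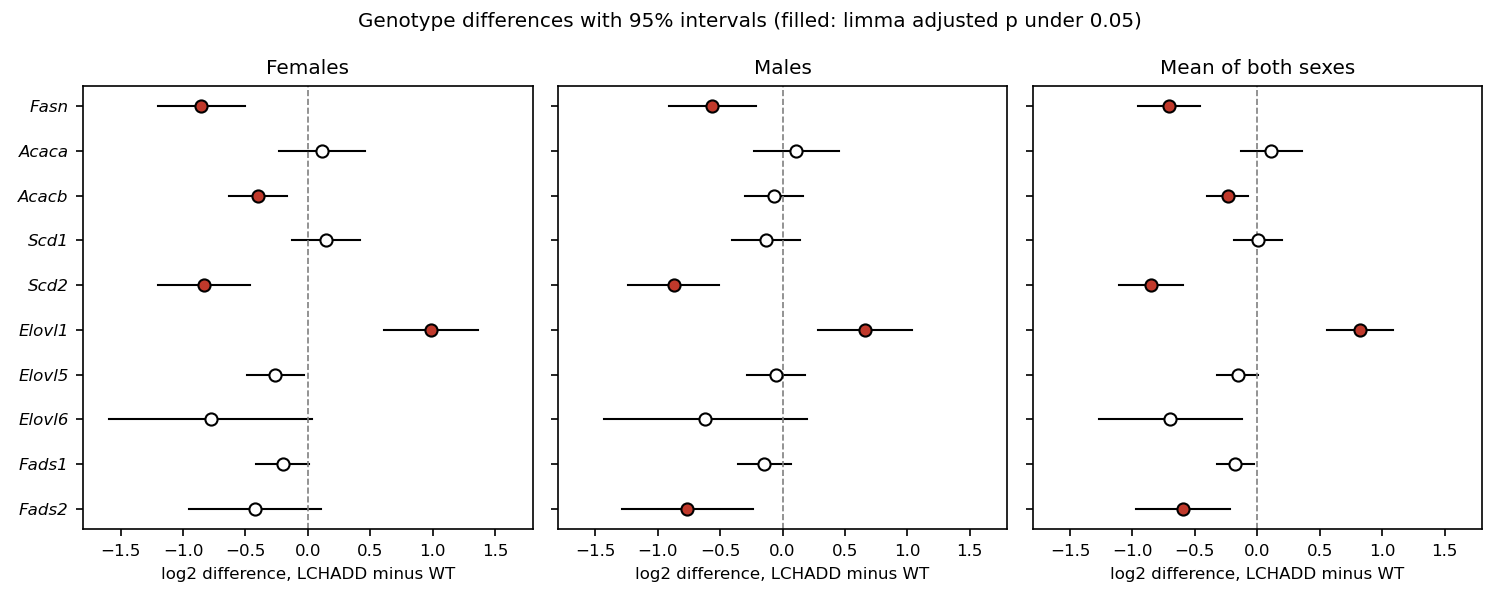
Log2 difference, LCHADD minus WT, for the 10 genes by sex and averaged over the sexes, with 95% intervals from limma. Filled points passed at an adjusted p under 0.05: Fasn, Scd2 and Elovl1 did in both sexes, Acacb in females and Fads2 in males.

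Because Fasn and Elovl1 changed in opposite directions with no overlap between genotypes, the sequence upstream of each is shown. The windows are the 200 bases before a RefSeq transcript start in GRCm38.p6, written along the gene's strand. Fasn is at chr11:120824548-120824747 on the minus strand and Elovl1 at chr4:118427893-118428092 on the plus strand. Capitals mark CCAAT on either strand, the letters bound by the factor NF-Y.
Fasn: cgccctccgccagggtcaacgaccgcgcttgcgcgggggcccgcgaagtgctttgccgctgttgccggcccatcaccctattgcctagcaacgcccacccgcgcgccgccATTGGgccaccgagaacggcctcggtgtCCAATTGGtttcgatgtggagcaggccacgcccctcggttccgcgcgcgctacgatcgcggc
Elovl1: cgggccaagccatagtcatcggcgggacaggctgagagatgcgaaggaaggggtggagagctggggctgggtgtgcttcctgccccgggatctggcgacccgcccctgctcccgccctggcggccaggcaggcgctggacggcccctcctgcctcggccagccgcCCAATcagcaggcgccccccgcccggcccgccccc
Fasn holds CCAAT on the plus strand at -62 and on the minus strand at -90 and -59, where -1 is the base just before the start, and the pair at -62 and -59 overlap. Elovl1 holds CCAAT once, at -35. RefSeq lists another Elovl1 start, whose 200 bases at chr4:118429501-118429700 hold none of the motifs searched, and the window shown was chosen because it holds CCAAT. RefSeq windows of 300 bases (250 before and 50 after the start) were available for 7 of the 10 genes, 8 windows in all, Elovl1 having a pair. CCAAT was found in 4 of the 8 windows (one each of Fasn, Acacb, Elovl1 and Elovl5), against 37.4% of 32851 windows of that length. CACGTG, an E-box, was in 1 of the 8 (Elovl5), against 7.15%. TCACNCCAC, a form of the sterol regulatory element, was in 0 of the 8, against 1.24% of all windows. Both strands were searched for each motif, and no match says only that these letters are not in these windows.

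Females and males did not differ detectably in the size of the genotype difference. For the interaction of genotype and sex, 0 of 10 genes passed with limma, against 0.00721% of all genes, 1 of 10 (Acacb) had an unadjusted p under 0.05, and edgeR and DESeq2 called 0 as well. Acacb had the smallest interaction p of the 10, with a log2 difference that was 0.33 lower in females than in males (limma unadjusted p = 0.0483, adjusted p = 0.501). Within WT, 0 of 10 genes differed between the sexes by limma, edgeR or DESeq2, against 0.245% of all genes, and 0 had an unadjusted p under 0.05. Fasn was the 1 member whose WT groups did not overlap, higher in females by 0.32 on the log2 scale (limma adjusted p = 0.723), where 18.4% of all genes do not overlap and 9.03% are higher in females. Within LCHADD, 0 of 10 passed by the same 3 tools, against 5.77% of all genes (368 higher and 432 lower in females, or 502 and 260 with scaling to nuclear reads), and 1 had an unadjusted limma p under 0.05. That gene was Acacb, with a log2 difference of -0.28 for females against males (limma unadjusted p = 0.0201, adjusted p = 0.148).

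For 3 genes the ranges were apart in both sexes at once. When sexes were pooled, Fasn, Scd2 and Elovl1 did not overlap between 6 WT and 6 LCHADD libraries, where 19.7% of all tested genes do not overlap, 9.82% of them being higher and 9.91% lower in LCHADD, as shares of all tested. In females 7 of the 10 genes did not overlap (6 lower and Elovl1 higher), against 44.5% of all genes (22.3% lower, 22.2% higher). In males 4 did not (Fasn, Scd2 and Fads2 lower, Elovl1 higher), against 38.9% (19.3% lower, 19.6% higher).

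Levels were compared between genes as normalised reads per kilobase of exon. In WT (SD, n = 6), Acacb was by far the most abundant at 789 ± 37.5, followed by Elovl5 at 98.9 ± 9.11, Elovl1 at 69.1 ± 4.83, Fads1 at 66.1 ± 2.09, Scd2 at 55.3 ± 10.6, Scd1 at 49.7 ± 3.11, Fasn at 37.8 ± 5.03, Fads2 at 16.4 ± 4.10, Acaca at 14.1 ± 1.57 and Elovl6 at 2.63 ± 0.67. Neighbours whose ranges overlapped were Elovl1 with Fads1, Fads1 with Scd2, Scd2 with Scd1, and Fads2 with Acaca. Acacb accounted for 98.2 ± 0.22% of the carboxylase signal in WT and 97.7 ± 0.95% in LCHADD libraries. In LCHADD libraries (SD, n = 6) Acacb was at 677 ± 107, and Elovl1 had the next highest mean, 125.5 ± 34.4, ahead of Elovl5 at 88.6 ± 6.64, with overlapping ranges. Scd1, at 50.3 ± 7.80, lay above Scd2, at 30.2 ± 2.91, in every LCHADD library. Fasn was at 23.3 ± 4.67 and overlapped there with both Scd2 and Acaca, the latter at 15.4 ± 3.25.

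Among genes that supply synthesis with acetyl-CoA and NADPH, 3 of 8 tested rose and 0 fell in the sex average, against 20.3% and 20.6% of all genes. The median log2 difference of the 8 was 0.07. Me1, the cytosolic malic enzyme that makes NADPH, stood at 2494 ± 177 normalised reads in WT against 5058 ± 792 in LCHADD females, and at 2666 ± 107 against 3942 ± 344 in males (SD, n = 3), a log2 difference of 0.79 in the sex average (SE 0.07). Pgd and G6pdx, the NADPH-producing dehydrogenases of the pentose phosphate pathway, rose by 0.60 (SE 0.08) and 0.49 (SE 0.14) in the sex average. G6pdx did not pass in males, at 0.22 with limma adjusted p = 0.507. Mlycd, which degrades malonyl-CoA, and Idh1, another NADPH source, were the most abundant genes of the list that did not pass, at 0.02 and 0.01.

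The other steps of the elongation cycle were mixed. Elovl2, Elovl3, Elovl4 and Elovl7 were below the filter, and of the 6 genes tested 3 rose and 1 fell in the sex average, against 20.3% and 20.6% of all genes. Hacd1, the dehydratase of the cycle found in muscle, rose by 0.81 in females and 0.44 in males, Hsd17b12, the ketoacyl reductase, by 0.29 in the sex average, and Hacd4 by 0.44 in the sex average (SE 0.10, 0.10, 0.07 and 0.15). In males 1 of the 6 genes rose (Hacd1) and 0 fell, against 7.71% and 7.77% of all genes. Hsd17b12 and Hacd4 did not pass in males, at 0.225 and 0.16 (limma adjusted p of 0.157 and 0.657). The sex-average call of Hacd4 was lost without WT female 2, LCHADD female 3 or LCHADD male 2 (0.38, 0.33 and 0.41, limma adjusted p of 0.064, 0.054 and 0.057). Tecr, the reductase of the last step, fell: females went from 8366 ± 281 to 5026 ± 1270 normalised reads (SD, n = 3), a log2 difference of -0.76 (SE 0.12, limma adjusted p = 0.000229). In males Tecr was at 9105 ± 296 in WT and 7739 ± 259 in LCHADD libraries, a difference of -0.24 that did not pass (limma adjusted p = 0.215). Hacd3 and Hacd2 did not pass, at 0.16 and 0.001 in the sex average.

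Relatives of the member desaturases and their electron donors moved mostly upward. Of 8 tested, 7 rose and 0 fell in the sex average, 7 rose in females and 5 in males, with median log2 differences of 0.61, 0.70 and 0.51. Of all tested genes, 20.3%, 16.7% and 7.71% rose in these 3 comparisons. The male count ranged from 2 to 6 over the alternatives and was 2 with edgeR. These counts include Scd3, which entered the test only through the LCHADD libraries, where it is high. Degs1, which introduces the double bond of ceramide, stood at 828 ± 81.1 normalised reads in WT against 1248 ± 66.4 in LCHADD females, and at 839 ± 16.4 against 1267 ± 24.8 in males (SD, n = 3), a log2 difference of 0.60 in females and 0.59 in males (SE 0.08 in each). Fads6, a relative of Fads1 and Fads2, rose by 0.84 in the sex average (SE 0.13). Fads3, Cyb5a and Cyb5b complete the 7 with Scd3 and Scd4, at 0.62, 0.38 and 0.35, and are named after their values were seen. In males Fads3 (0.42) and Cyb5a (0.18) did not pass, with limma adjusted p of 0.33 and 0.319. Cyb5b passed in males at 0.275 (limma adjusted p = 0.0479), and in 11 of 23 alternatives. Without LCHADD female 2, the Fads3 difference in females went from 0.81 to 0.36 and no longer passed (limma adjusted p = 0.094), and its sex average was 0.39 and passed (limma adjusted p = 0.0062). Without LCHADD male 1 the Fads3 sex average was 0.52 and did not pass (limma adjusted p = 0.06). Cyb5r3, the reductase that passes electrons to cytochrome b5, was at -0.16 and did not pass.

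Fatty acid synthesis inside mitochondria, a separate route that feeds lipoic acid production, had 2 of 6 tested genes pass in the sex average, near the 40.8% of all genes. Of these, Mecr, its last reductase, rose by 0.31 (SE 0.08) and Mcat, which loads malonyl groups, fell by 0.30 (SE 0.06). Neither passed in males, at 0.27 and -0.21 with limma adjusted p of 0.126 and 0.0981. Ndufab1, the acyl carrier protein, and Cbr4, a reductase subunit, did not pass, at -0.08 and -0.11.

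Of 22 regulators of lipogenic transcription and of the carboxylases, 2 rose and 6 fell in the sex average, with a median log2 difference of -0.05. Over all tested genes 40.8% passed, 20.3% higher and 20.6% lower, so the share of regulators is near the background, and 5 rose when libraries were scaled to nuclear reads. Srebf1, the sterol regulatory element binding factor that activates lipogenic genes, fell by 0.87 in females and 0.49 in males. The male call was lost without WT male 1, WT male 3 or LCHADD male 3, with limma adjusted p of 0.1, 0.079 and 0.097. Mlxipl, the carbohydrate response factor, stood at 413 ± 57.4 normalised reads in WT against 212 ± 60.2 in LCHADD females, and at 411 ± 14.1 against 245.5 ± 18.8 in males (SD, n = 3), a log2 difference of -0.87 in the sex average (SE 0.12, limma adjusted p = 5.04e-05). Thrsp, a protein tied to lipogenesis, stood at 335 ± 24.4 in WT against 193 ± 46.8 in LCHADD females, and at 487 ± 48.6 against 262 ± 44.8 in males, a log2 difference of -0.86 in the sex average (SE 0.11). Prkab1, a regulatory subunit of the kinase that inactivates acetyl-CoA carboxylase, fell by 0.41 in the sex average (SE 0.07). Prkaa2, a catalytic subunit of that kinase, and Prkab2 did not pass, at 0.02 and -0.01. The other genes that passed were Mid1ip1, which binds the carboxylases, and Srebf2, both lower at -0.61 and -0.23, and Insig1 and Mbtps2, which hold back and release the sterol factors, higher at 0.48 and 0.43. These last 4 are named after their values were seen. In females Insig1 (0.32) and Mid1ip1 (-0.48) did not pass, with limma adjusted p of 0.159 and 0.0608. Srebf2 passed in neither sex, with limma adjusted p of 0.0733 in females and 0.0607 in males.

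**Figure D4:**
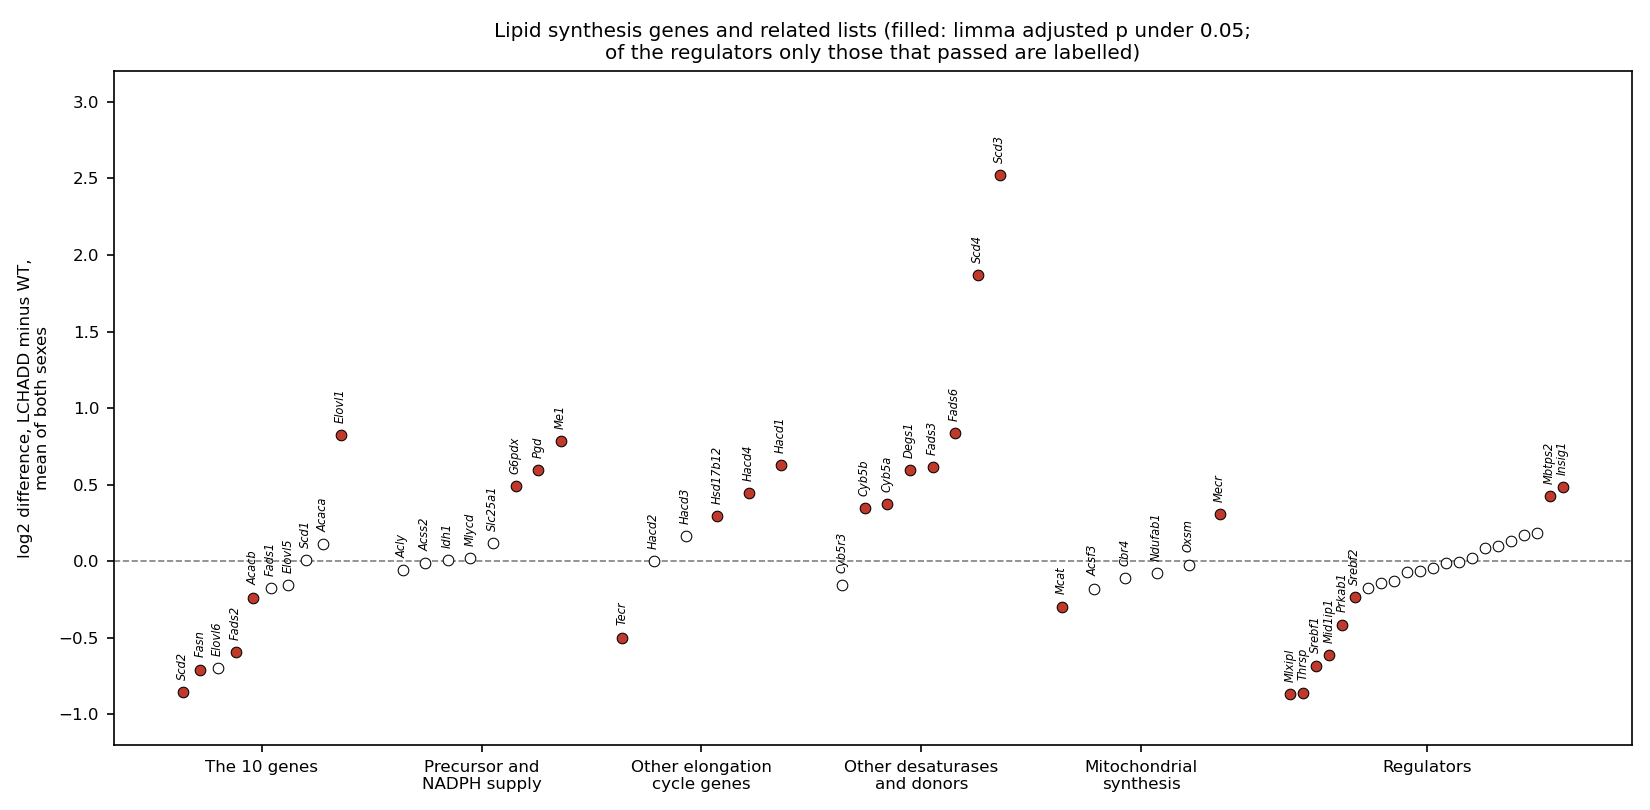
Log2 difference, LCHADD minus WT, in the sex average for every tested gene of the 5 related lists beside the 10 members, with filled points for genes that passed at an adjusted p under 0.05. The desaturase relatives lie above 0 except Cyb5r3, while the regulators spread to both sides.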

How the data were processed

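RNA sequencing of 12 ventricle libraries was analysed, in 4 groups of 3 named by genotype and sex in the labels. The authors deposited 1 table of normalised read counts, a signal in which each library's counts were divided by a size factor. The submitters' processing notes name bcl2fastq, DESeq2 and GRCm39. The sources used here do not give the aligner, counting tool, annotation or strand setting. Dividing by the step between low values gave whole reads (within 0.01) for 100% of values in every library, so size factors, not lengths, set the scale. Ensembl identifiers were matched to GENCODE vM21 symbols (51633 of 51912 genes), whose exon unions (GRCm38) gave lengths.

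Genes with at least 10 normalised reads in at least 3 libraries (13865) were tested with limma 3.58.1 in R 4.3.3 on log2(value + 1), with 4 group means in 1 fit and Benjamini-Hochberg adjustment over all tested genes at 0.05. A log2 difference on this scale understates changes of low genes. Adjusted p-values come from this fit unless another tool is named. The code was tested on simulated data. Alternatives were other added values and filters, TMM and nuclear-read scaling, edgeR 4.0.16 and DESeq2 1.42.0 on recovered reads (edgeR called 4821 genes in females, 2149 in males and 5709 in the sex average), the compared groups alone, a replicate block and leaving out libraries. From each related list, up to 4 genes that passed with the smallest adjusted p and up to 2 abundant ones that did not are named. The 10 genes and the lists were chosen with earlier results of these data known. Hsd17b8 was not used here.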

Additional observations from a re-analysis of the deposited data

How the results depend on the processing

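Counting each of the 10 genes under each alternative, 225 values in females, 205 in males and 200 in the sex average kept their direction and their side of the threshold, while 2, 23 and 4 no longer passed and 7 in the average newly passed. Leaving out LCHADD female 2 and WT female 3 together turned the direction for values near 0: Acaca in females (-0.12) and in the average (-0.00562), Scd1 in the average (-0.0506), the interactions of Acaca (-0.23) and Scd2 (-0.18), and, in the average, Hacd2 (-0.11) and Prkaa2 (-0.0204). Without that pair the Acacb difference was -0.20 in females (limma adjusted p = 0.081) and -0.14 in the average (0.051), and with the female groups alone its adjusted p was 0.054. TMM scaling put Hacd2 at -0.00317, and scaling to nuclear reads put Prkab2 at 0.0271. None of these reversed values passed, and the cause was not tested.

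Leaving out each library in turn gave 1 to 4 of the 10 genes passing in males and 0 to 1 for sex within LCHADD. It gave log2 differences of -0.0814 to 0.26 for Acaca in females, -0.134 to 0.022 for Elovl5 in males and -0.0389 to 0.0674 for Scd1 in the average. Interactions ran from -0.19 to 0.15 for Acaca, -0.43 to 0.12 for Elovl6, -0.102 to 0.0276 for Fads1 and -0.14 to 0.24 for Scd2. Related genes in the average ran from -0.11 to 0.10 for Hacd2, -0.0579 to 0.116 for Idh1, -0.0251 to 0.103 for Mlycd, -0.00959 to 0.0539 for Prkaa2 and -0.0591 to 0.0298 for Prkab2.

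Over all genes, 2146 passed in males, or 3342 with the male groups alone, 3293 without LCHADD female 2, 1332 without WT male 1 and 1317 without WT male 3 or LCHADD male 1. The interaction called 1 gene, or 101 with DESeq2, 186 without LCHADD female 3 and 69 without LCHADD male 3 (0 to 186 with a library left out). Sex called 34 genes in WT (17 to 105 with a library left out, 87 with DESeq2 and 142 with the WT groups alone) and 800 in LCHADD (215 to 1643, and 82 with the LCHADD groups alone). The correlation of same-numbered deviations from group means had a median of -0.01 over 18 pairs, with 0 above 0.1. With 3 libraries in each mean, this cannot exclude that replicate numbers paired the libraries. With a replicate block, 4, 3 and 5 of the 10 genes passed in females, males and the average, against 4, 4 and 5, Fads2 in males reaching adjusted p = 0.058. Elovl6 had no value with the filter at 50. Depth limits Elovl6 most, at 6.83 to 23.4 normalised reads.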
